A study of Mus musculus with 2 samples.

Results

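The constitutive proteasome subunits were taken as the rows of both count tables whose symbol begins with Psma, Psmb, Psmc or Psmd followed by a number, leaving out Psmb8, Psmb9 and Psmb10, and 36 of 31057 rows matched. They comprised 8 alpha and 8 beta genes of the 20S core particle, and 6 ATPase and 14 non-ATPase genes of the 19S regulatory particle. The rule used symbols only. The matched rows include genes that are not subunits of the standard particle, namely Psma8, a testis form, and Psmb11, a thymus form. Psmd5, Psmd9 and Psmd10 are chaperones that help assemble the 19S base.

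The study profiled single liver cells of C57BL/6 mice aged 16 weeks, in 1 control library and 1 cirrhosis library, each from cells pooled from 3 mice. All mice carried Cdh5-Cre and the mTmG reporter, in which Cre, driven by the endothelial Cdh5 promoter, switches cells from tdTomato to eGFP. Cirrhosis had been induced with inhaled carbon tetrachloride (CCl4), a liver toxin, over 12 weeks, and what the control mice received is not given in the sources used here. Live GFP-positive cells were sorted from the non-parenchymal fraction and sequenced from their 3′ ends with unique molecular identifiers (UMIs). Because each group was a single library, no test was made, and every interval given covers counting error only.

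The proteasome degrades proteins that carry ubiquitin chains. Its 20S core is a barrel in which alpha rings gate the entry and beta rings hold the proteolytic sites, and its 19S cap binds the ubiquitin chain, removes it and unfolds the substrate with a ring of ATPases. Under interferon, the catalytic beta subunits Psmb5, Psmb6 and Psmb7 can be replaced in new particles by Psmb8, Psmb9 and Psmb10, which forms the immunoproteasome. Liver sinusoidal endothelial cells (LSECs) line the hepatic sinusoids and differ along the axis from the portal tract to the central vein.

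The tables held 5642 control and 8327 cirrhosis barcodes with medians of 6864 and 8537 UMIs, of which 4953 and 7191 were kept after filtering. The classes called all LSEC-like cells held 2869 control and 2650 cirrhosis cells, made up of pericentral (352 and 395), intermediate (1977 and 1944) and periportal (540 and 311) cells. Levels are in CPM, each gene's UMI counts over all UMIs of its class and library, on the usual CPM scale. All 10 LSEC markers and all 8 endothelial markers were detected in them, at summed levels of 22079 and 13103 CPM in control and 15666 and 10685 CPM in cirrhosis. The 9 hepatocyte markers summed to 313.9 CPM in control and 538.7 CPM in cirrhosis, and the 10 Kupffer cell markers to 94.5 and 233.1 CPM. The 9 markers of large-vessel endothelium summed to 729.8 and 1528 CPM, and mitochondrial transcripts to 74609 and 85381 CPM. Their part in the results was not tested, beyond a scaling without mitochondrial and hepatocyte marker genes that is given in the closing section. In the first clustering step the libraries lay largely apart, with 26 control and 2753 cirrhosis cells in the largest endothelial cluster and 2062 and 7 in the next. Of the control LSEC-like cells, 1859 came from a first-step cluster in which they had 2807 CPM of Fos, an immediate early gene, and 990 from one with 240.1 CPM, against 212.7 CPM in cirrhosis, and the 36 genes summed to 3620 and 3627 CPM in those 2 sets of control cells. The sort did not leave endothelial cells alone, since hepatocyte, cholangiocyte and several blood cell classes were also present in both libraries. Of the deposited barcodes, 17 were shared by both libraries.

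Of the 36 genes, 34 were measured in all LSEC-like cells, that is, they had a mean of at least 20 CPM over both libraries and a count in each. Psma8 had 113 and 179 counts (5.25 and 6.98 CPM). Psmb11 had 3 counts in control and 0 in cirrhosis, where a count of 0 allows up to 0.117 CPM. Psmd10 and Psmd5 lay closest above the minimum, at 28.1 and 30.9 CPM in control. The genes lie on 16 chromosomes. Exons of 2 of them overlapped another gene on the same strand (Psmb5 with Mir686, Psmd1 with Gm21972). On the opposite strand 8 overlapped one, namely Psma4 (with AY074887), Psma5, Psmb7, Psmc3, Psmd1, Psmd3, Psmd9 and Psmd13. How the counting treated strand and shared reads is not given in the sources used here.

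The promoters of 5 members are shown because 3 of them (Psma4, Psmc5 and Psmd2) had the highest ratios of cirrhosis over control among the measured members, and Psmb5 and Psmb6 encode catalytic subunits and held the TGACNNNGC form of the antioxidant response element core close to the start. Each is the 130 bases before the RefSeq start site (GRCm38.p6), printed 5′ to 3′ on the strand of the gene, with matches to the core TGANNNNGC in capitals.
Psma4 (chr9:54950729-54950858, plus strand): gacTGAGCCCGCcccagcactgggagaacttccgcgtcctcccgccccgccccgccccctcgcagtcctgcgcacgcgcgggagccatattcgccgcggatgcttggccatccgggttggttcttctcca
Psmc5 (chr11:106256055-106256184, plus strand): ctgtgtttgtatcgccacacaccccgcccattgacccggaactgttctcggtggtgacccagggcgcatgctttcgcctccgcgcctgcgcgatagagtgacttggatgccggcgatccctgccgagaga
Psmd2 (chr16:20651522-20651651, plus strand): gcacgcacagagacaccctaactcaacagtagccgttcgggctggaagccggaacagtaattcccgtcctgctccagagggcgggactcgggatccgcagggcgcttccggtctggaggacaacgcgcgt
Psmb5 (chr14:54617996-54618125, minus strand): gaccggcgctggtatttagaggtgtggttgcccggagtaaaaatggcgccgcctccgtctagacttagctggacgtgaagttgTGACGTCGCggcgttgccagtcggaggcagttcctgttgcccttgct
Psmb6 (chr11:70525227-70525356, plus strand): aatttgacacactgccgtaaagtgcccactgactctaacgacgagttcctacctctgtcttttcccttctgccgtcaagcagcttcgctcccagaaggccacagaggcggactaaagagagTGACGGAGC
The antioxidant response element is the site bound by Nfe2l1 and Nfe2l2, the factors known to drive proteasome genes. Over windows of 250 bases before and 50 after the start, TGANNNNGC on either strand was in 17 of the 29 members in the table (58.6%) and in 45.0% of 27025 genes. Its narrower form TGACNNNGC was in 5 of 29 (17.2%) against 14.0%, and the CCAAT box, searched on both strands, in 12 of 29 (41.4%) against 41.1%. A match is a description of these letters, and no match says only that they are absent from the window. TGACNNNGC is contained in TGANNNNGC, so its matches are counted in both.

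In all LSEC-like cells the levels of the proteasome genes differed little between the libraries, with most a little higher in cirrhosis. The 36 genes together made up 3624 CPM in control and 3886 CPM in cirrhosis, a log2 ratio of 0.10 (95% interval 0.09 to 0.11). Of the 34 measured genes, 27 were higher in cirrhosis, against 44.7% of all 6864 genes measured in the same way, and the median log2 ratio was 0.11 against -0.04 over all genes. A gene was called when its log2 ratio was past 0.32 in either direction. Only Psma4 and Psmc5 were called higher (2 of 34, against 11% of all genes), and 0 were called lower (against 15.7%). By counting error alone, the interval lay above 0 for 24 members, below 0 for 2 (Psma3 and Psmd5) and held 0 for 8. Intervals were not counted over all genes, so no share of all genes can be set beside these counts. Under at least 1 of the alternatives run, 11 of the 34 changed sign, namely Psma1, Psma2, Psma5, Psmb2, Psmb3, Psmb5, Psmb6, Psmb7, Psmd9, Psmd11 and Psmd12. Psmb5 and Psmd12, for example, were at -0.03 and -0.05 when cells were thinned to 3000 UMIs, and Psma1 was at -0.0052 against the control cells with low Fos. Thinning left out the LSEC-like cells with fewer UMIs than that, which were 213 in control and 111 in cirrhosis. The plot of subunit levels shows each pair of values.

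**Figure D1:**
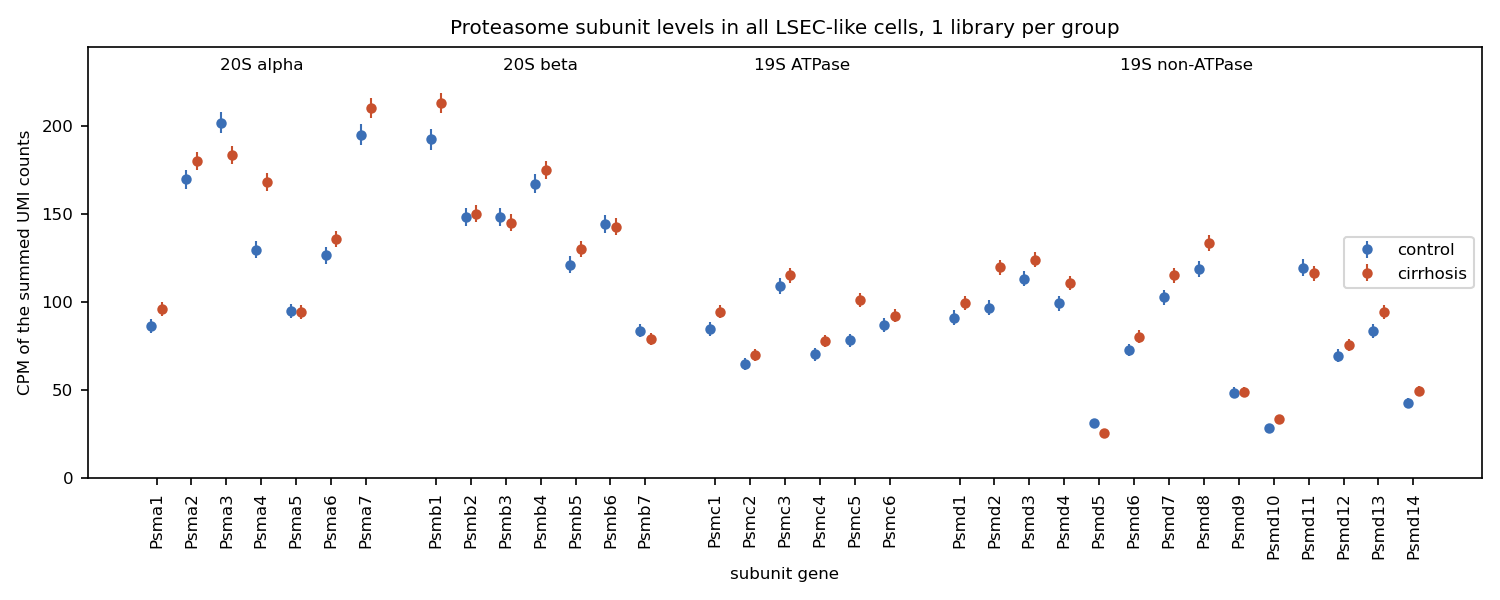
Level of each of the 34 measured subunit genes in all LSEC-like cells, in CPM of the summed UMI counts, with control in blue and cirrhosis in red, 1 library each, and exact Poisson 95% intervals (counting error only). Psma4 goes from 129.7 to 168.1 CPM and Psmd5 from 30.9 to 25.5 CPM.

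Among the alpha subunits of the core, 5 of 7 measured genes were higher in cirrhosis (44.7% of all genes). Their median log2 ratio was 0.10, with a summed level of 1009 CPM in control and 1075 CPM in cirrhosis. This median was 0.013 when cells were thinned to 3000 UMIs and 0.017 with second-step clusters weighted equally. Psma4, an alpha-ring subunit, had 129.7 CPM in control (125.0 to 134.6) and 168.1 CPM in cirrhosis (163.1 to 173.2), a log2 ratio of 0.37 (0.30 to 0.44), and the counting intervals of its levels did not meet. With second-step clusters weighted equally it was at 0.29, under the limit for a call. Psma1 went from 86.1 to 96.0 CPM (0.16, 0.07 to 0.24) and Psma7 from 195.1 to 210.4 CPM (0.11, 0.05 to 0.17). Psma3 was lower, with 202.0 CPM in control and 183.5 CPM in cirrhosis (-0.14, -0.20 to -0.08). Psma5 had 94.7 and 94.2 CPM, and Psma2 had 169.7 and 180.0 CPM (0.08, 0.02 to 0.15). The alpha ring thus held both the gene with the highest ratio of the measured members and one whose interval lay below 0.

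The beta subunits moved least, with a median of 0.02 and 4 of 7 genes higher (44.7% of all genes). Their sums were 1005 CPM in control and 1035 CPM in cirrhosis. The sign of their median turned under 3 other settings given in the closing section. Psmb5, which carries the chymotrypsin-like site, had 121.2 CPM in control and 130.1 CPM in cirrhosis (0.10, 0.03 to 0.18). Psmb6, with the caspase-like site, had 144.2 and 142.8 CPM, and Psmb7, with the trypsin-like site, had 83.7 and 79.0 CPM (-0.08, -0.18 to 0.01). The intervals of Psmb6 and Psmb7 held 0. Of the other beta subunits, which have no active site, Psmb1 was highest by ratio, from 192.4 to 213.2 CPM (0.15, 0.09 to 0.21). Psmb4 went from 167.3 to 175.1 CPM and Psmb3 from 148.2 to 145.0 CPM.

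The ATPase ring of the 19S cap was higher in cirrhosis for 6 of 6 genes (44.7% of all genes). Its median was 0.13, with sums of 493.6 and 550.3 CPM. Psmc5 stood apart, with 78.1 CPM in control (74.5 to 82.0) and 100.9 CPM in cirrhosis (97.0 to 104.8), a log2 ratio of 0.37 (0.28 to 0.46). It was under the limit for a call when cells were thinned to 3000 UMIs (0.21) and, narrowly, with zones weighted equally (0.3216). The other ATPases lay between 0.08 (Psmc3, from 109.0 to 115.1 CPM) and 0.16 (Psmc1, from 84.6 to 94.5 CPM). Psmc4 had 70.2 and 77.9 CPM, Psmc2 had 64.8 and 69.7 CPM, and Psmc6 had 86.9 and 92.2 CPM with an interval that held 0.

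Of the non-ATPase subunits, 12 of 14 were higher in cirrhosis (44.7% of all genes), with a median of 0.15 and sums of 1116 and 1225 CPM. Psmd2, the large scaffold that also binds ubiquitin-like domains, had 96.6 CPM in control and 119.8 CPM in cirrhosis, a log2 ratio of 0.31 (0.23 to 0.39), just under the limit for a call. Psmd4, a ubiquitin receptor, went from 99.2 to 110.9 CPM (0.16, 0.08 to 0.24), and Psmd14, the deubiquitinase of the lid, from 42.5 to 49.5 CPM (0.22, 0.10 to 0.34). The assembly chaperones went different ways. Psmd10 had 28.1 and 33.1 CPM (0.24, 0.08 to 0.39), Psmd9 had 48.4 and 48.7 CPM, and Psmd5 had 30.9 and 25.5 CPM, the lowest ratio of the measured members (-0.27, -0.43 to -0.12). Psmd11, a lid subunit, had 119.6 and 116.2 CPM with an interval that held 0.

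The 19S members of the rule were thus further above control than the 20S members. Their sum holds the assembly chaperones Psmd5, Psmd9 and Psmd10. It leaves out the 19S subunits Adrm1 and Sem1, which together had 499.8 CPM in control and 496.6 CPM in cirrhosis. The ratio below was not computed with Adrm1 and Sem1 added. Summed 19S counts were 0.799 of summed 20S counts in control LSEC-like cells and 0.842 in cirrhosis, a log2 change of 0.07 (0.05 to 0.10), in which the scaling of the libraries cancels. This ratio was computed after the subunit values had been seen. It was higher in cirrhosis in 8 of 8 second-step clusters of the LSEC and large-vessel classes, by 0.05 to 0.16, and the interval lay above 0 in 5 of them. The 20S sum itself was lower in cirrhosis in second-step cluster 0 (2165 and 2076 CPM) and second-step cluster 3 (1707 and 1504 CPM). The 19S sum was higher in cluster 0 (1676 and 1768 CPM) and lower in cluster 3 (1476 and 1449 CPM). Both sums were higher in the rest of these clusters. In the 2 unnamed endothelial clusters the ratio of 19S to 20S was 0.833 in control and 0.830 in cirrhosis, and 0.750 and 0.714. In other classes the change ranged from -0.04 in T or NK cells to 0.16 in monocytes or dendritic cells (0.03 to 0.29), whose hepatocyte markers summed to 410.0 and 2232 CPM, and neither the part of those nor whether classes differ was tested.

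**Figure D2:**
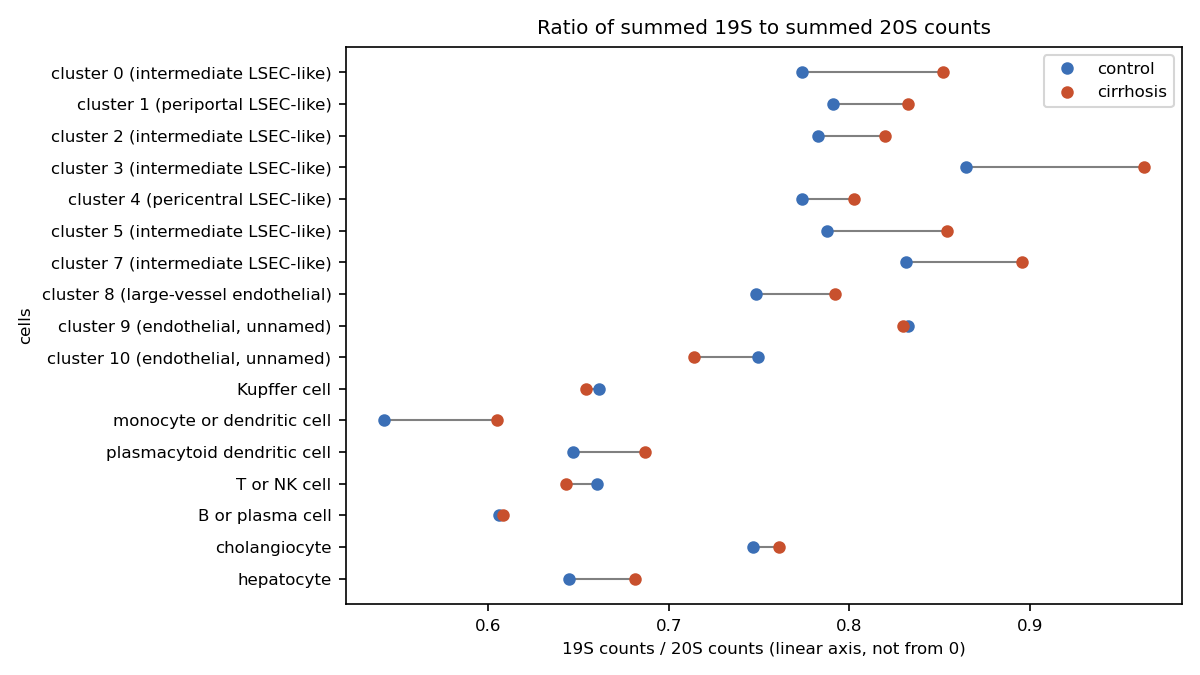
Ratio of summed 19S to summed 20S UMI counts (linear axis), control in blue and cirrhosis in red, 1 library each. Shown are the second-step endothelial clusters and the other cell classes with at least 50 cells in each library. The cirrhosis point lies to the right of control in all 8 named endothelial clusters shown, and not in the 2 unnamed ones.

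The pattern was looked at in each zone of the lobule, since zonation is the subject of the series title. The summed log2 ratio of all members was 0.10 in pericentral, 0.09 in intermediate and 0.10 in periportal cells. Higher in cirrhosis were 24 of 34 members in pericentral cells (45.3% of all genes), 28 in intermediate cells (43.5%) and 27 in periportal cells (47.2%). Of the 34 members, 21 were higher in cirrhosis in all 3 zones, against 29.7% of 6514 genes, and Psma3, Psmb3, Psmb7 and Psmd5 were lower in all 3, against 38.2%. The zones share the libraries and are not replicates. Different second-step clusters held most intermediate cells in the 2 libraries, with cluster 0 at 169 control and 982 cirrhosis cells and cluster 5 at 587 and 123.

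Psma4 was the member called higher in each zone, at 0.55 in pericentral, 0.33 in intermediate and 0.37 in periportal cells. Psmc5 was at 0.40 in intermediate and 0.41 in periportal cells and at 0.18 in pericentral cells, where its interval held 0. Pericentral cells had 4 members called higher (16.5% of all genes there) and 1 lower (22.2%), which was Psmd5 at -0.44. Intermediate cells had 2 higher (10.9%) and 0 lower (16.1%), and periportal cells 2 higher (13.8%) and 0 lower (16.9%). The sum of the ATPases was 0.03 above control in pericentral cells (-0.06 to 0.12), 0.18 in intermediate cells (0.13 to 0.22) and 0.17 in periportal cells (0.08 to 0.26). Whether the zones differ was not tested. The pericentral class leaves out 420 cirrhosis and 35 control cells with pericentral markers but few LSEC markers. Those cirrhosis cells had 658.1 CPM of ATPases, against 580.2 CPM in cirrhosis and 568.1 CPM in control cells of the pericentral class. The zone ratios were not rerun with these cells added.

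**Figure D3:**
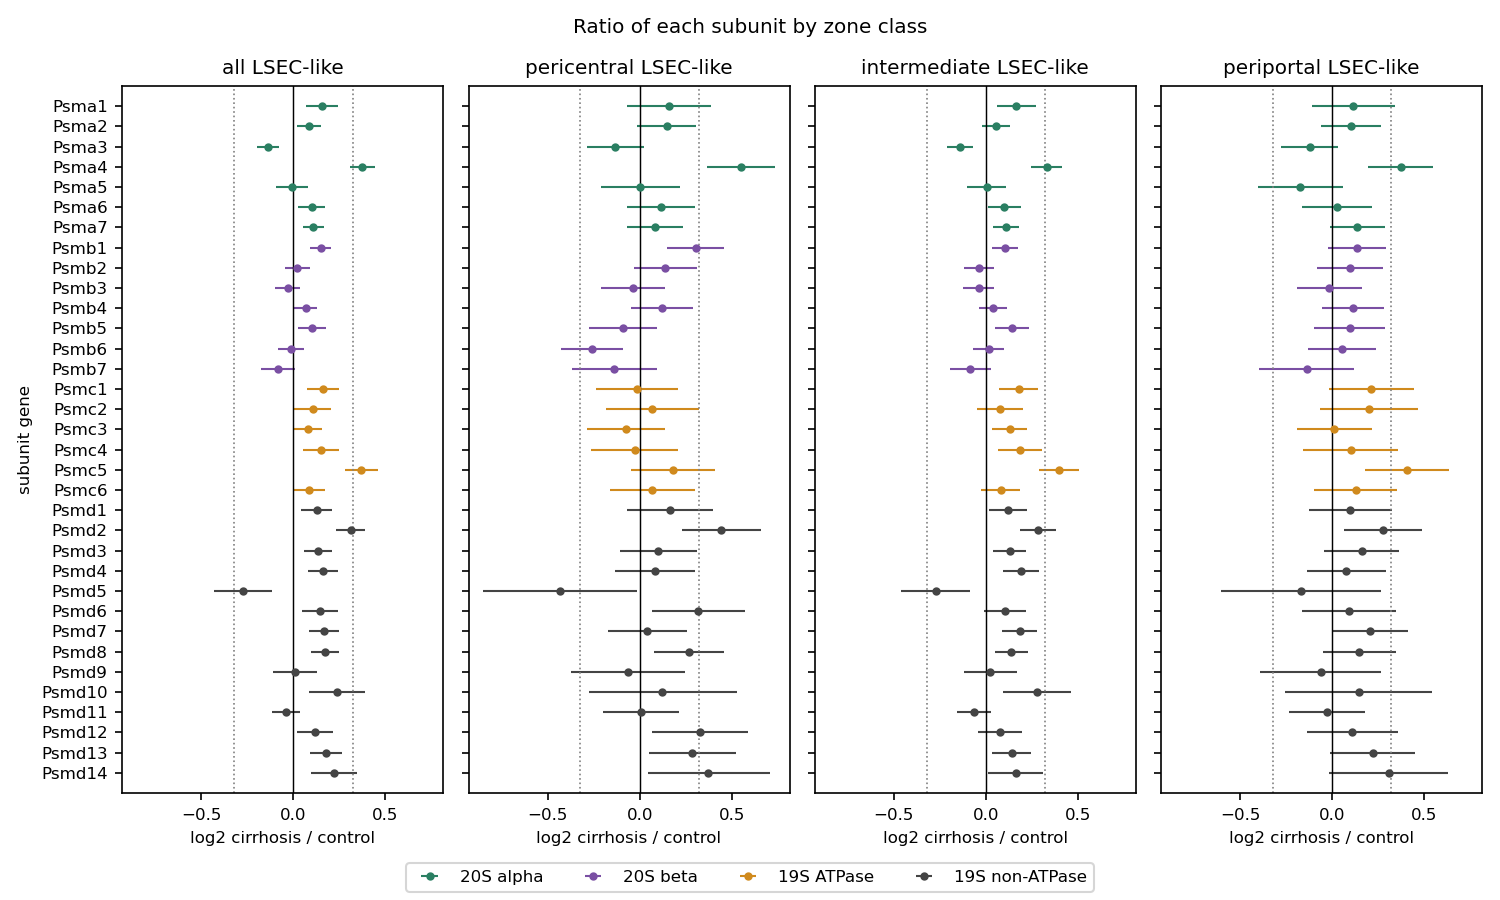
Log2 ratio of cirrhosis over control for each measured subunit, in all LSEC-like cells and the 3 zone classes, with exact 95% intervals (counting error only) and dotted lines at the limits for a call. Psma4 lies past the upper line in all 4 panels, and most other members lie between the lines.

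Within each library, pericentral cells had higher proteasome levels than periportal cells. The sum was 3907 CPM against 3581 CPM in control, a log2 ratio of 0.13 (0.09 to 0.16), and 4185 against 3842 CPM in cirrhosis (0.12, 0.09 to 0.16). Intermediate cells had 3584 CPM in control and 3822 CPM in cirrhosis, and their second-step cluster 2 had 3942 CPM in control. In control, mitochondrial transcripts were 64032 CPM in pericentral and 81603 CPM in periportal cells. Hepatocyte markers there were 217.1 and 414.8 CPM, and the part of either was not tested. In control 29 of 34 members were higher in pericentral cells (55.5% of all genes) and in cirrhosis 30 of 34 (53.7%). Called higher were 3 members in control (15.1% of all genes), namely Psmb6, Psmc4 and Psmb7, and 2 in cirrhosis (11.9%), namely Psma5 and Psmb7, and 0 were called lower in either (10.3% and 11%). Psmb7 had 76.1 CPM in periportal and 97.3 CPM in pericentral control cells, and 69.1 and 88.3 CPM in cirrhosis, a log2 ratio of 0.35 in both. Psmb6 had 137.4 and 186.8 CPM in control (0.44, 0.27 to 0.62) and 142.7 and 155.8 CPM in cirrhosis (0.13, -0.05 to 0.30). The 420 cirrhosis cells with pericentral markers but few LSEC markers, of which control had 35, reached 4593 CPM for all members.

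The immunoproteasome subunits, which replace the catalytic beta subunits, were lower in cirrhosis in all LSEC-like cells, with a median of -0.20 over 3 genes. Psmb9 went from 92.4 to 59.6 CPM (-0.63, -0.73 to -0.54), Psmb10 from 140.8 to 122.6 CPM (-0.20, -0.27 to -0.13) and Psmb8 from 108.2 to 100.2 CPM (-0.11, -0.19 to -0.03). Set against its constitutive counterpart, Psmb9 had 0.641 counts per Psmb6 count in control and 0.418 in cirrhosis, a log2 change of -0.62 (-0.74 to -0.50). Psmb8 per Psmb5 went from 0.893 to 0.770 (-0.21, -0.32 to -0.10) and Psmb10 per Psmb7 from 1.68 to 1.55 with an interval that held 0. The change of Psmb9 over Psmb6 was -0.75 in pericentral, -0.58 in intermediate and -0.52 in periportal cells, and its interval lay below 0 in each. It was also below 0 in large-vessel endothelial cells (-0.65), Kupffer cells (-0.74) and cholangiocytes (-0.43), and its interval held 0 in T or NK cells (0.01), B or plasma cells (0.31), monocytes or dendritic cells (-0.27), plasmacytoid dendritic cells (-0.15) and hepatocytes (-0.41). In Kupffer cells Psmb9 itself had 128.9 and 121.2 CPM (-0.09, -0.30 to 0.13), and Psmb6 had 113.2 and 177.3 CPM. The 3 subunits summed to a log2 ratio of -0.60 in pericentral, -0.22 in intermediate and -0.16 in periportal cells. The interval of Psmb8 over Psmb5 lay below 0 in pericentral cells (-0.41), intermediate cells (-0.18) and hepatocytes (-0.42). It lay above 0 in B or plasma cells (0.83) and held 0 in the other classes. That of Psmb10 over Psmb7 lay below 0 in pericentral (-0.32) and Kupffer cells (-0.37) and held 0 in the others. Whether classes differ was not tested. These pair ratios were chosen after the subunit values had been seen.

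**Figure D4:**
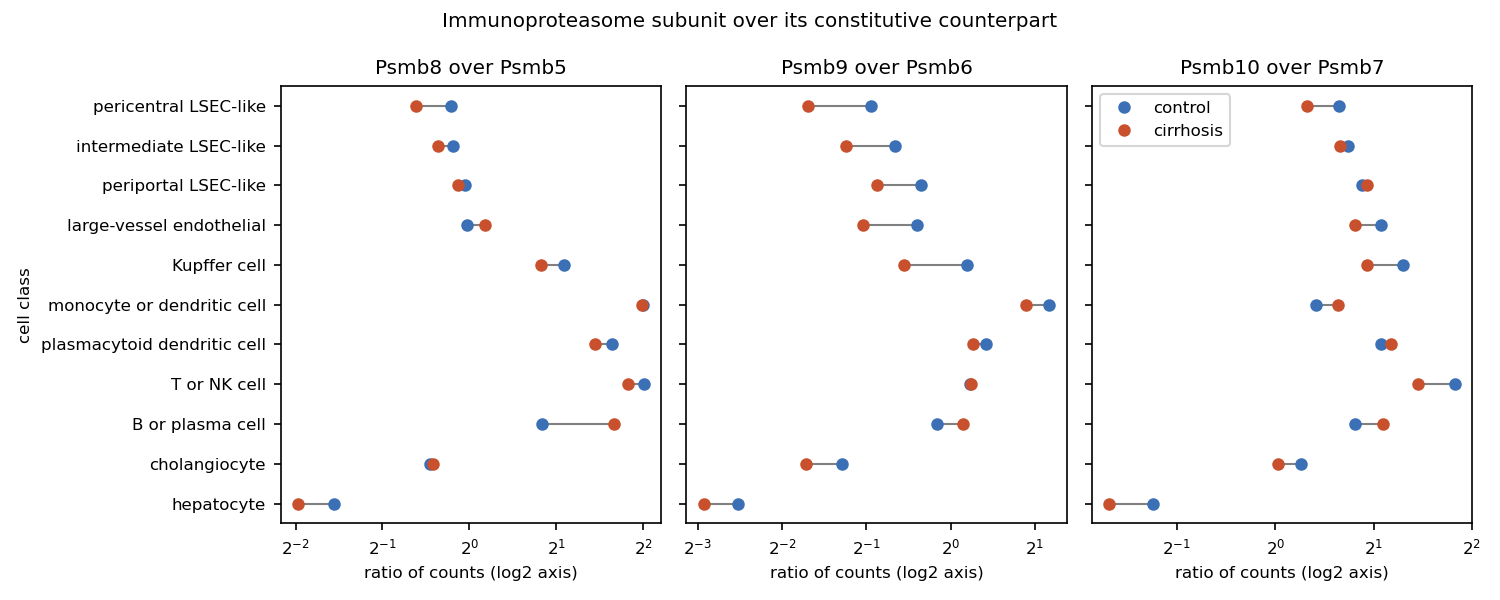
Counts of each immunoproteasome subunit over its constitutive counterpart by cell class (log2 axis), control in blue and cirrhosis in red, 1 library each. In the pair of Psmb9 and Psmb6 the cirrhosis point lies to the left in all 3 LSEC-like zones, and hepatocytes have the lowest ratios of the 11 classes in all 3 pairs.

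Other genes of the pathway did not move as a block. Of the activators and inhibitor, Psme4, a nuclear activator, had the highest ratio, from 55.8 to 74.6 CPM (0.42, 0.31 to 0.52), while Psme1 (0.11) and Psme2 (0.08), the interferon-linked cap, Psme3 (-0.05) and the inhibitor Psmf1 (-0.15) were not past the limit. The 19S subunits outside the rule were Adrm1, a ubiquitin receptor, with 71.5 and 74.4 CPM, and Sem1, with 428.4 and 422.2 CPM. Of the assembly chaperones of the core, Pomp went from 268.5 to 302.3 CPM (0.17, 0.12 to 0.22), and Psmg2, Psmg3 and Psmg4 were at -0.12, -0.09 and -0.14. Psmg1 fell short of the minimum, with 22.0 and 17.9 CPM.

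Among the factors that control proteasome genes, 4 of 6 were higher in cirrhosis (44.7% of all genes). Ddi2, the protease that releases Nfe2l1 for its move to the nucleus, had the highest ratio, from 65.8 to 90.1 CPM (0.45, 0.36 to 0.55), and Nfe2l2, the oxidative stress factor, the lowest, from 209.8 to 178.2 CPM (-0.24, -0.30 to -0.18). Nfe2l1 itself, named after its values were seen, went from 135.9 to 160.2 CPM (0.24, 0.17 to 0.31). Of the deubiquitinases and shuttle factors, 3 of 7 were higher (44.7% of all genes), from Ubqln2 at -0.50 to Uchl5 at 0.30. Of the 5 genes of ubiquitin and its activation, 3 were higher (44.7% of all genes) and 2 lower. There was 1 called in each direction, against 11% of all genes called higher and 15.7% called lower. Ubb, a polyubiquitin gene, went from 1332 to 1511 CPM (0.18, 0.16 to 0.20), Rps27a, which encodes ubiquitin fused to a ribosomal protein, was at 0.47, and Uba1, the activating enzyme, was at 0.13.

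Other complexes of several subunits served for comparison. Of all genes in LSEC-like cells, 44.7% were higher in cirrhosis. In the CCT chaperonin 7 of 7 genes were higher, with a median of 0.23 from Cct3 (0.07) to Cct2 (0.42). In the eIF3 translation initiation complex 12 of 13 were higher, with a median of 0.31 from Eif3g (-0.02) to Eif3e (0.58). In the COP9 signalosome, which is related to the lid, 3 of 9 were higher, with a median of -0.06 from Cops8 (-0.40) to Cops6 (0.23). The median of the proteasome genes, 0.11, lay between them.

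Across cell classes, hepatocytes had the highest summed level of the 36 genes, at 5293 CPM in control and 5818 CPM in cirrhosis, and B or plasma cells the lowest of the classes with at least 50 cells in both libraries, at 2206 and 3195 CPM. LSEC-like cells (3624 and 3886 CPM) lay below large-vessel endothelial cells (3932 and 4224 CPM) in both libraries. Classes of a library share free RNA and differ in depth, with medians of 1481 and 1967 UMIs in hepatocytes.

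Kupffer cells, the resident macrophages of the liver, had the largest shift outside the B or plasma class, from 3248 to 3807 CPM, with 30 of 34 members higher (41.6% of all genes). There were 11 called higher (19.3% of all genes) and 1 lower (31.3%), which was Psmd5. Their beta subunits went from 853.0 to 1110 CPM, a log2 ratio of 0.38 (0.30 to 0.46), led by Psmb6 at 0.65. Their hepatocyte markers summed to 1204 and 1807 CPM, and their mitochondrial transcripts to 114340 and 80739 CPM, whose part in the result was not tested. The class depended on the settings, with 129 control and 281 cirrhosis cells here. It had 109 and 32 with doublets kept and 234 and 421 at clustering resolution 1.0, and at resolution 0.3 no class bore the name. The Kupffer cell values were not rerun under these settings. Of the 34 members, 27 were higher in large-vessel endothelial cells (47.1% of all genes) and 25 in hepatocytes (46%). In plasmacytoid dendritic cells 24 were higher (47.3%), in T or NK cells 22 (43.1%) and in cholangiocytes 21 (42.8%). In monocytes or dendritic cells 15 were higher (51.8%). In hepatocytes the non-ATPase subunits had a median of 0.21, with Psmd8 at 0.69, and Psma4 was at 0.58. Of the beta subunits of monocytes or dendritic cells, 1 of 7 was higher, with a median of -0.17, and the part of their hepatocyte markers, given above, was not tested. In B or plasma cells 32 of 33 measured members were higher (87.1% of all genes) and the median was 0.52, but that of all genes was 0.77, so the members lay below the general shift of that class. At clustering resolution 1.0 the cells named as plasma cells were 15 in control and 10 in cirrhosis, with medians of 39419 and 6494 UMIs, and the part of this in the shift was not tested.

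**Figure D5:**
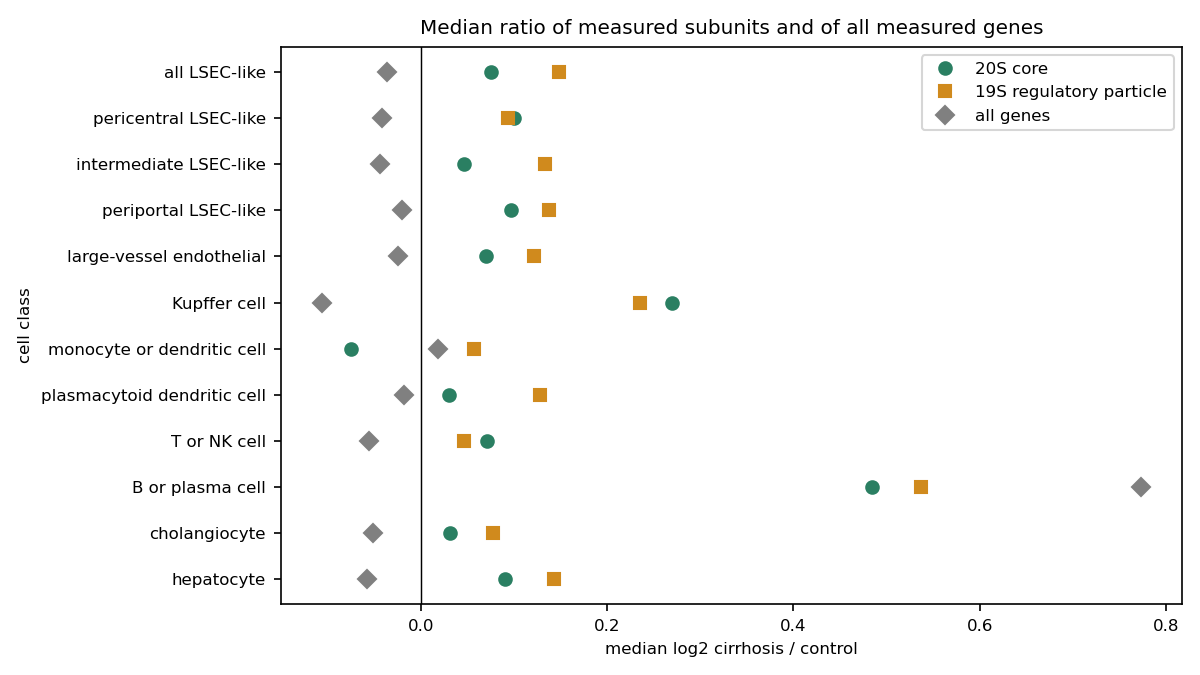
Median log2 ratio of cirrhosis over control by cell class for the measured 20S core genes (circles), 19S genes (squares) and all measured genes (diamonds), 1 library per group. In all LSEC-like cells the 20S median is 0.08, the 19S median 0.15 and the all-gene median -0.04, and in B or plasma cells all 3 lie to the right.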

How the data were processed

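The deposited tables hold raw UMI counts, one row per gene symbol and one column per barcode. The submitters' processing notes name Cell Ranger and mm10, and neither its version nor the annotation is given in the sources used here. They hold 45767322 control and 77339928 cirrhosis UMIs. Cells needed at least 500 UMIs, 300 genes, under 20% mitochondrial and at most 5% erythroid counts. Doublets were scored against simulated ones, and 214 control and 470 cirrhosis barcodes were removed at 0.8% per 1000 barcodes. Cells were clustered in 2 steps (Leiden, leidenalg 0.10.2) without the 36 genes, and classes were named from marker lists, with naming limits set after the clusters had been seen. Counts were summed per class and library and divided by the class total (CPM). Ratios have exact conditional 95% intervals, and the 19S over 20S ratios of large sums a normal interval on the log scale. The exact intervals were run on simulated Poisson counts, the model they assume. That run held no variation between cells, mice or libraries, so it checks the computation only. Calls are log2 ratios past 0.32 in either direction. The members and lists were chosen with earlier results of these data known. Genes named are the 3 highest and 3 lowest ratios of each of the 4 subcomplexes, Psmb5, Psmb6, Psmb7, Psmd14, Psmd2 and Psmd4, every gene of lists of up to 5 (some genes of the ubiquitin list are not reported here) and the extremes of longer lists; other names were chosen after their values were seen. Cct6a was not matched in the tables. Levels are not compared between genes, since UMIs were read from 3′ ends. Positions are from GENCODE M21 (GRCm38) and promoters from RefSeq (GRCm38.p6). Alternatives concerned scaling, the minimum level, the fold for a call, the cell filter, doublets, clustering and the weight of cells. Totals without dominant gene groups left out mitochondrial, haemoglobin and ribosomal protein genes, Gm42418 and the hepatocyte markers.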

Additional observations from a re-analysis of the deposited data

Results flagged for a closer look

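For 3 members, the exact intervals of the ratio lay on opposite sides of 0 in an LSEC-like zone and in another cell class. B or plasma cells were left out of this search, because their genes shifted as a whole. The search covered the members only, over many pairs of classes, so no share of all genes can be set beside the 3. The differences themselves were not tested. Psma6 had a log2 ratio of 0.10 in intermediate LSEC-like cells and -0.21 in Kupffer cells. Psmb6 was at -0.26 in pericentral LSEC-like cells and at 0.65 in Kupffer cells. Psmc3 was at 0.13 in intermediate LSEC-like cells and at -0.31 in T or NK cells.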

How the results depend on the processing

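Each result rests on 1 library per group, so it cannot be told from a difference between 2 pools of mice. Among the 3 LSEC-like zones, 31 of 34 intervals of single members held 0 in periportal cells, 24 in pericentral cells and 13 in intermediate cells. No paired analysis was possible because each group had 1 library. In all LSEC-like cells, Psma4 and Psmc5 kept their sign under every alternative run. Single members in zones were not rerun, nor was any value of the other cell classes. In all LSEC-like cells, 23 of 34 members kept their sign under every alternative (21 higher, 2 lower). The causes of the moves below were not tested, and values are log2 medians or counts of members past the fold. The share of all genes past the fold under each setting is not given beside these counts. They therefore show only how the counts depend on the setting.

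All LSEC-like cells: with median-of-ratios scaling, which set the median log2 ratio of genes with at least 50 counts in both libraries from -0.06 to 0, the alpha, beta, ATPase and non-ATPase medians were 0.16, 0.084, 0.19 and 0.22, and with totals without dominant gene groups 0.17, 0.087, 0.19 and 0.22. With 1.5-fold for a call, 0 members were higher. With the stricter cell filter the alpha median was 0.074 and 1 member was lower. With the mean of per-cell CPM the alpha and beta medians were 0.057 and -0.036. Thinned to 3000 UMIs, the alpha, beta and non-ATPase medians were 0.013, -0.039 and 0.13, 1 member was higher and 1 lower, and the change of 19S over 20S was 0.11. Against control cells of first-step cluster 3, the ATPase median was 0.22 and 1 member was lower. Settings chosen after seeing the data gave, with the LSEC-marker-low pericentral cells added, 0.14, 0.090, 0.18 and 0.18, and with second-step clusters weighted equally 0.017, -0.054, 0.079 and 0.12, with 1 higher and 1 lower; leaving out the low-depth cluster led by Gm42418 moved none of these.

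Pericentral cells: the 20S and 19S medians (0.10 and 0.09) were 0.16 and 0.16 with median-of-ratios scaling, 0.19 and 0.18 with totals without dominant gene groups (8 members higher in both), and 0.15 and 0.17 with the stricter filter (9 higher, 2 lower). That filter left 216 control and 52 cirrhosis pericentral cells. With doublets kept 7 were higher, with the mean of per-cell CPM 2, with a 50 CPM minimum 0 were lower, and at 1.5-fold 0 were higher and 0 lower. Thinned, the 20S median was 0.042, with 2 higher and 2 lower.

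Intermediate cells: the 20S and 19S medians (0.05 and 0.13) were 0.11 and 0.20 with median-of-ratios scaling and 0.12 and 0.20 with totals without dominant gene groups (4 higher in both), 0.093 and 0.17 with the stricter filter (1 lower), and -0.027 and 0.10 when thinned (1 higher, 1 lower, 19S over 20S 0.12). At 1.5-fold 0 were higher.

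Periportal cells: the 20S median (0.10) was 0.024 at resolution 1.0 and 0.035 with the mean of per-cell CPM, and the 19S median (0.14) was 0.076 with doublets kept. With no minimum, the stricter filter, resolution 0.3 or thinning, 1 member was lower, and at 1.5-fold 0 were higher.

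Pericentral over periportal: in control the 20S median (0.12) was 0.070 with the stricter filter and 0.049 at resolution 1.0, and the count of 3 higher was 1 with the stricter filter and at resolutions 0.3 and 1.0, 5 with the mean of per-cell CPM and 0 at 1.5-fold; thinned, 1 was lower. In cirrhosis the 20S median (0.15) was 0.083 when thinned (4 higher) and the 19S median (0.08) was 0.19 with the stricter filter (5 higher), which left 52 pericentral cells. The count of 2 higher was 1 with doublets kept and at resolution 1.0, and 0 at 1.5-fold.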
